A study of Homo sapiens with 6 samples.

Results

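The 8 genes described here are H2AFZ, H2AFV, H2AFX, H2AFJ, H2AFY, H3F3A, H3F3B and H1FX. They were chosen by name from the 58302 genes of the RIP-seq table as polyadenylated replacement histone genes. Whether the reads of each gene came from polyadenylated mRNA was not examined. All 8 symbols had 1 row each in the table. The RNA came from SW480 and DLD-1, established human CRC (colorectal cancer) lines of epithelial origin. Both were labelled by the submitters as genotype WT with no treatment, while the study's text describes both lines as p53 mutant. There were 6 groups with 1 library each. In each line these were Input, NAT10 RIP (RNA pulled down with antibody to NAT10, an acetyltransferase) and acRIP (fragments pulled down with antibody to ac4C, N4-acetylcytidine). With no replicates, each ratio within a line compares 2 libraries and has no test.

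Most histone mRNAs are made during S phase from intronless genes in clusters and end in a stem-loop instead of a poly(A) tail. Replacement histones are encoded by single genes outside the clusters, and their mRNAs are typically polyadenylated. They are typically made through the whole cell cycle to be placed into chromatin where nucleosomes are exchanged. NAT10 is the known writer of ac4C, so its RIP and the ac4C peaks give 2 separate readouts of the same mRNAs.

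The H2A class holds 5 of the 8 genes. H2AFZ (ENSG00000164032, now named H2AZ1, chr4:99948088-99950275 on the minus strand) and H2AFV (ENSG00000105968, H2AZ2, chr7:44826889-44848126) encode the paralogous proteins of H2A.Z, which marks promoters. H2AFX (ENSG00000188486, H2AX, chr11:119093874-119095465) encodes H2AX, phosphorylated at DNA breaks. H2AFJ (ENSG00000246705, H2AJ, chr12:14774405-14778002) encodes H2A.J, and H2AFY (ENSG00000113648, MACROH2A1, chr5:135334381-135399887) encodes macroH2A1, a variant with a large extra domain. H3F3A (ENSG00000163041, H3-3A, chr1:226061831-226072019) and H3F3B (ENSG00000132475, H3-3B, chr17:75776434-75779779) encode the same protein, H3.3. H1FX (ENSG00000184897, H1-10, chr3:129314771-129316286) encodes a linker histone, which binds the DNA between nucleosomes. Gene positions are those of RefSeq on GRCh38.p14.

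The 250 bases upstream of a RefSeq start (GRCh38.p14) were read for 8 of the 8 genes. This was the gene start except for H2AFV. The motif CCAAT, typical of histone promoters, was searched on both strands, and on the other strand its letters read ATTGG. The motif TATAAA was searched likewise. At least 3 CCAAT were found upstream of H2AFZ (3), H2AFV (4, before a start that lies inside the gene), H2AFX (4), H2AFJ (3) and H3F3B (4), thus in 5 of 8 genes, against 2.93% of the 35116 promoters of the table. TATAAA was found upstream of H2AFZ, H2AFX, H3F3B and H1FX, against 10.7% of promoters. Upstream of their gene starts, H2AFY held 2 CCAAT, H3F3A 1 and H1FX 0. Further starts inside the gene held 0 for H2AFY and 1, 0 and 1 for H3F3A. The shares of the table are per promoter, while the members are counted per gene. The sequences of H2AFZ, H2AFX and H3F3B are shown because these genes held both motifs. Each runs 5′ to 3′ on the minus strand up to the base before the start, with the matches to both motifs in capitals. They lie at chr4:99950276-99950525, chr11:119095466-119095715 and chr17:75779780-75780029.
H2AFZ: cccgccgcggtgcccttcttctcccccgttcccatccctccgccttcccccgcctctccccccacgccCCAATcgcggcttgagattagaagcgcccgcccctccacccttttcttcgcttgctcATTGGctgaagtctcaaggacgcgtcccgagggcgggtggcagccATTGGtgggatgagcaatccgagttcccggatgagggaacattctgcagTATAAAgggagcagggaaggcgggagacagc
H2AFX: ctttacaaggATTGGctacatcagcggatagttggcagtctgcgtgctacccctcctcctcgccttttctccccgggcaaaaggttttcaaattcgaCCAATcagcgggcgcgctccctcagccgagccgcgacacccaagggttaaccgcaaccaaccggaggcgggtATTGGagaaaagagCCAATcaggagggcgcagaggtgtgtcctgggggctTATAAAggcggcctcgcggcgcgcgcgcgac
H3F3B: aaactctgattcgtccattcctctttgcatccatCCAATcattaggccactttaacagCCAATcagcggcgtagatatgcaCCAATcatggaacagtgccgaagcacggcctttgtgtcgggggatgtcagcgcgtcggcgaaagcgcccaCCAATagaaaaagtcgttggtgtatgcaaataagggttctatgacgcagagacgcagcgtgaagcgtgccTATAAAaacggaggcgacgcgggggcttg
All 3 sequences place TATAAA about 30 bases before the start and the CCAAT motifs further upstream. A match gives only the letters, and no binding was measured on DNA.

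The RIP libraries resembled the Input of the other label more than that of their own, and this touches every ratio below. On the log2(FPKM + 1) scale (FPKM, fragments per kilobase of transcript after scaling for depth), RIP labelled SW480 had a Pearson r of 0.944 with Input DLD-1 and 0.871 with Input SW480, over 16196 protein-coding genes. RIP labelled DLD-1 had 0.951 with Input SW480 and 0.856 with Input DLD-1. These are descriptions across genes, which are not independent. Each ratio of a member is therefore given over the same-label Input and over the other-label Input. A second table, deposited with the acRIP data, holds its own Input column for each line, and these went with the RIP-table Input of the same label (0.963 and 0.957). The titles name 1 Input per line, so these columns may come from the same libraries as the RIP-table Inputs. Whether they do is not given in the sources used here. The RIP-table libraries held between 11548718 and 26609034 reads as solved from the FPKM values. The epithelial markers EPCAM, CDH1, KRT8, KRT18 and KRT19 were between 54.1 and 1642 FPKM in the 4 RIP-table libraries, and CDX2 between 4.30 and 33.4 FPKM, but CDX1, VIL1 and LGALS4 lay between 0 and 4.78 FPKM. The markers of other cells PTPRC, COL1A1, COL3A1, LUM, PECAM1 and VWF were below 1 FPKM in all 4. NAT10 mRNA itself was between 14.3 and 23.0 FPKM.

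The 8 genes spanned a wide range of levels. In Input of the RIP table, H2AFX was the highest in both lines, at 97.0 FPKM in SW480 and 55.5 FPKM in DLD-1. H3F3B followed in both, at 43.2 and 40.3 FPKM. The order below differed between lines, and with 1 library per line no neighbours in it were tested. Summed, the 8 genes took 0.0449% and 0.0397% of all Input FPKM, and 0.0916% and 0.122% of all RIP FPKM, in SW480 and DLD-1 labels. These shares are of FPKM, a measure per length, not of reads. The acRIP-table Inputs gave another order of the genes. There H2AFZ was highest in SW480 at 79.6 FPKM and H1FX in DLD-1 at 67.1 FPKM. H2AFX ranked 2 and 3, and H3F3B ranked 5 in both lines.

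**Figure D1:**
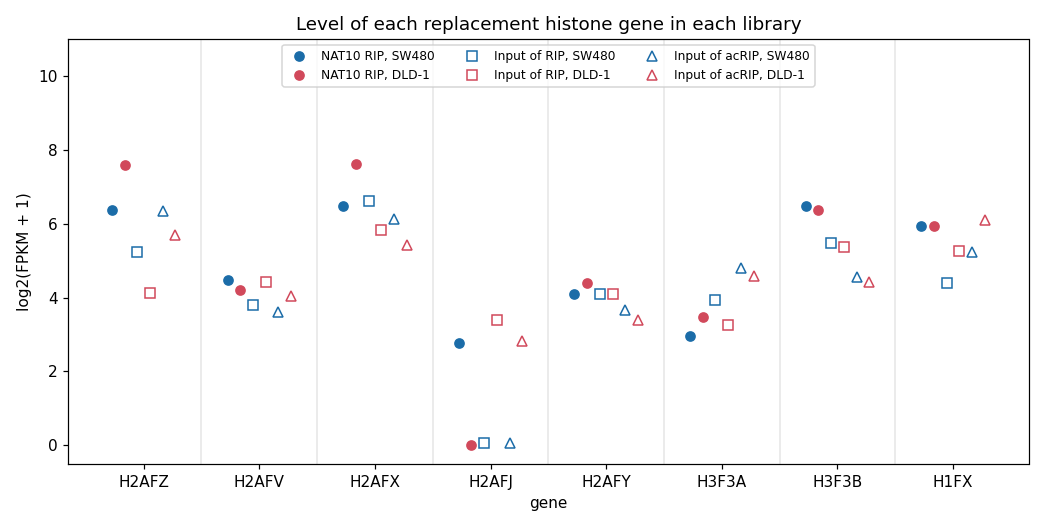
Level of each gene as log2(FPKM + 1) in the 4 libraries of the RIP table (circles, RIP, and squares, Input) and in the Input columns of the acRIP table (triangles), coloured by label, with 1 library per point. H2AFX has the highest Inputs of the RIP table, and H2AFJ lies at 0 in RIP labelled DLD-1 and near 0 in both Inputs labelled SW480.

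H2AFJ differed most between labels, and in opposite directions in RIP and Input. It had 0.0440 FPKM in Input SW480 and 9.54 FPKM in Input DLD-1, and the acRIP-table Inputs gave 0.0541 and 6.03 FPKM. In RIP it had 5.79 FPKM (533 reads) in the library labelled SW480 and 0 FPKM (0 reads) in that labelled DLD-1, the reverse of both Inputs. Against the same label, RIP SW480 over Input was 131 (95% counting interval 36.2 to 1088, on 2 Input reads). For RIP DLD-1, with 0 reads, a limit of 3 reads per library (0.0383 FPKM) put the level at least 249-fold lower than its Input of 400 reads. Against the other label, RIP SW480 over Input was 0.607 (0.532 to 0.693), and in RIP DLD-1 both values lay at or under 3 reads. These intervals cover counting error only.

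Between labels, RIP and Input moved in opposite directions for 7 of the 8 genes, where 74.0% of the 12324 genes with an Input of at least 1 FPKM in both lines did so. It was thus the pattern of most genes of the libraries. H2AFJ is counted among the 8, here and for the Inputs below, but is not among those 12324 genes. As SW480 minus DLD-1 on the log2 scale, H2AFZ differed by -1.23 in RIP, by 1.09 in Input and by 0.64 in the acRIP-table Input. For H2AFX these differences were -1.12, 0.80 and 0.69. In 2 of the 7, H2AFY (Input, 0.011) and H1FX (RIP, 0.013), 1 of the differences was near 0. H3F3B was the exception, at 0.13, 0.10 and 0.12. The Inputs of both tables gave the same sign for 8 of 8 genes, where 10109 of those 12324 genes did so. This too was the pattern of most genes.

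**Figure D2:**
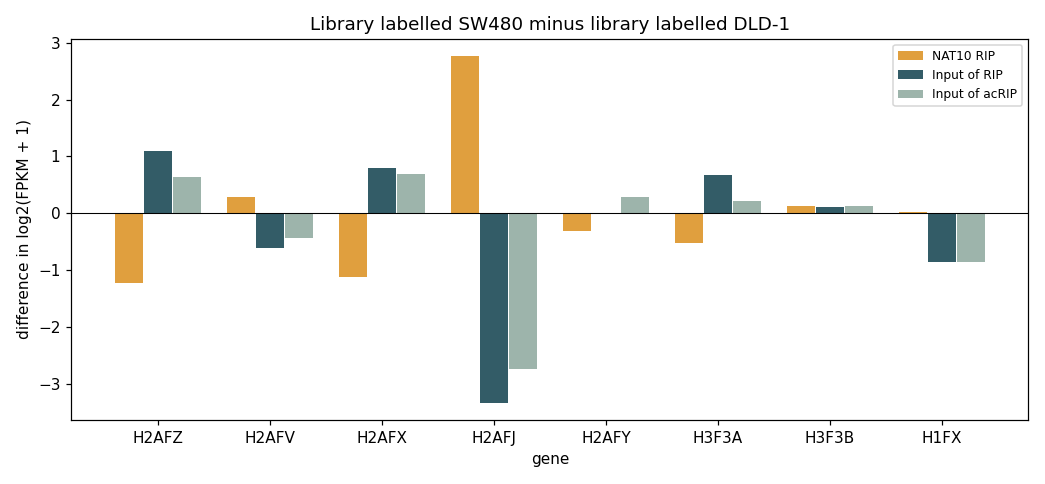
Difference in log2(FPKM + 1) between the library labelled SW480 and that labelled DLD-1 for each gene, in NAT10 RIP, in Input and in the Input of the acRIP table (bars from 0). Only H3F3B has bars of 1 sign, and H2AFJ has the widest gap, from 2.76 in RIP to -3.33 in Input.

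Next, which of these mRNAs were enriched in NAT10 RIP was asked, as log2((RIP FPKM + 1) / (Input FPKM + 1)). Of the 8 genes, 7 had an Input of at least 1 FPKM in both lines and entered this comparison, and H2AFJ did not. Against the same label, 3 of the 7 (H2AFZ, H3F3B and H1FX) were at least 2-fold above Input in the libraries labelled SW480, where 15.6% of all genes tested were, and 2 (H2AFZ and H2AFX) in those labelled DLD-1, against 15.1%. At least 2-fold below Input were 0 in both, against 16.0% and 19.2%. Over the other-label Input, 2 of 7 were 2-fold above with either RIP library, namely H2AFZ and H3F3B in SW480 and H2AFZ and H1FX in DLD-1, against 9.24% and 9.36%. None (0) was 2-fold below, against 11.7% and 11.8%. These shares include non-coding genes, while all 7 members are protein-coding. Of the 10350 protein-coding genes tested, 949 (SW480) and 1323 (DLD-1) were 2-fold below over the same label. Over the other label 407 and 467 were. At least 2-fold above were 1801 and 1727 over the same label and 1048 and 1035 over the other. The median log2 ratio of the 7 genes was 0.68 and 0.67 against the same label and 0.67 and 0.89 against the other. That of all 12324 genes was 0.05, -0.05, 0.02 and 0.00 (-0.004) in the same order. For the protein-coding genes tested it was 0.177, 0.065, 0.114 and 0.086. Over the acRIP-table Inputs the median was -0.093 and 0.46 for the same label and 0.079 and 0.22 for the other, and 1 gene was 2-fold above in SW480 over either of them. After centring on protein-coding genes 1 gene in SW480 was 2-fold above. Only H2AFZ was past 2-fold in all 4 ratios over the RIP-table Inputs.

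**Figure D3:**
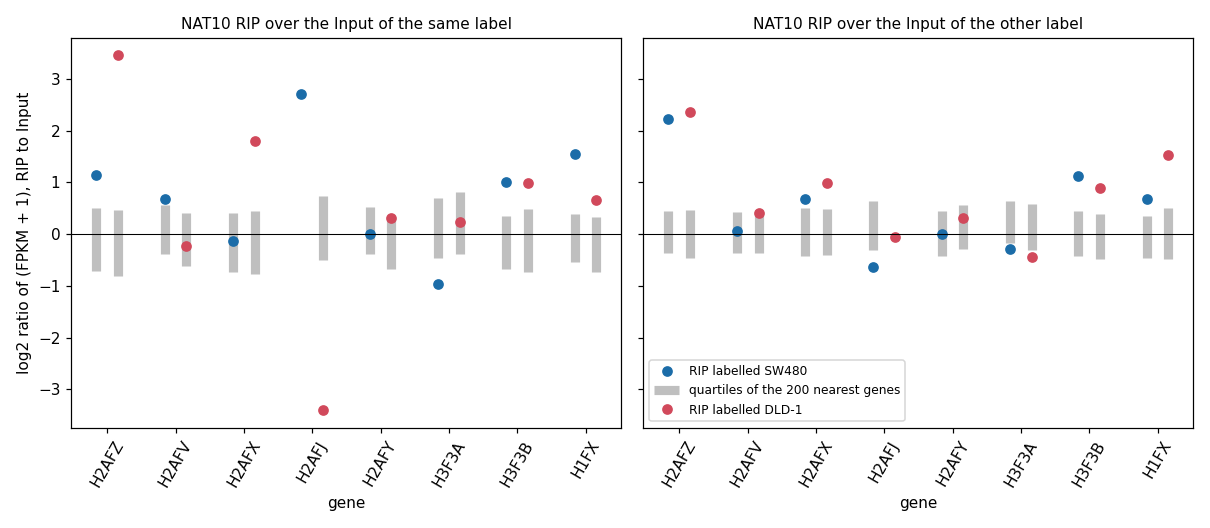
log2 ratio of (FPKM + 1) in NAT10 RIP to Input for each gene, over the same-label Input (left) and over the other-label Input (right), with 1 point per RIP library. Grey bars are the quartiles of the 200 protein-coding genes nearest to that gene in Input. Points of H2AFX and H2AFJ lie far apart on the left and closer together on the right, while H2AFZ lies above its grey bars in both panels and H3F3B near 1 in both.

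H2AFZ had the highest ratios among the 7 genes in 3 of the 4 comparisons. Its levels were 81.2 and 191 FPKM in RIP labelled SW480 and DLD-1, against 36.5 and 16.6 FPKM in Input, so both RIP libraries lay above both Inputs. RIP over Input was 2.23 (95% counting interval 2.02 to 2.46) and 11.6 (10.1 to 13.3) against the same label, and 4.91 (4.26 to 5.68) and 5.25 (4.78 to 5.77) against the other. Of the 200 protein-coding genes nearest to it in Input, 89.5% and 99.5% had a lower log2 ratio against the same label, and 99.5% against the other in both. The acRIP-table Inputs were higher, at 79.6 and 50.6 FPKM. Over these, scaled to the RIP-table Inputs, the log2 ratio was -0.52 and 1.31 for the same label and 0.08 and 0.71 for the other, so the RIP excess in the library labelled SW480 was not seen with that table.

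The paralog H2AFV lay above or below Input depending on the pairing. It had 21.3 and 17.4 FPKM in RIP against 12.9 and 20.4 FPKM in Input. The log2 ratio was 0.68 and -0.22 against the same label and 0.06 and 0.40 against the other. The 2 mRNAs of H2A.Z thus stood 2.17 and 1.96 apart on the log2 ratio scale over the other label and 0.45 and 3.67 apart over the same label, with H2AFZ higher each time. Over the acRIP-table Input of the same label in SW480, H2AFV was the higher, at 0.35 against -0.52.

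H2AFX had 88.9 and 194 FPKM in RIP labelled SW480 and DLD-1 and 97.0 and 55.5 FPKM in Input. Its log2 ratio was -0.12 and 1.79 against the same label and 0.67 and 0.996 against the other. Of the 200 nearest genes 50% and 96% lay lower against the same label, and 82.0% and 89.0% against the other. H2AFY lay close to Input, with 16.1 and 20.2 FPKM in RIP, 16.1 and 16.0 FPKM in Input, and log2 ratios between -0.004 and 0.32. Over 2376 to 5594 reads per library its counting error was small, and the quotient of 0.997 (0.951 to 1.05) in the libraries labelled SW480 covered 1. With RIP labelled DLD-1 the quotients were 1.26 (1.20 to 1.32) against the same label and 1.25 (1.20 to 1.31) against the other, both above 1.

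For H3.3, H3F3B gave the steadiest excess. It had 88.5 and 80.9 FPKM in RIP against 43.2 and 40.3 FPKM in Input, and both RIP libraries lay above both Inputs whichever label was taken. RIP over Input was 2.05 (1.94 to 2.16) and 2.01 (1.90 to 2.13) against the same label, and 2.20 (2.08 to 2.32) and 1.87 (1.77 to 1.98) against the other. Between 88.5% and 95.5% of its 200 nearest genes lay lower. With the acRIP-table Inputs the log2 ratio was between 1.27 and 1.47. Thus RIP lay above Input for H3F3B in 8 of 8 pairings of a RIP library with an Input column. These pairings reuse 2 RIP libraries, and the Inputs of both tables may be the same libraries, so they are not independent.

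H3F3A, which encodes the same protein, was above Input by its own row in 1 of 4 ratios over the RIP-table Inputs. Over the acRIP-table Inputs it was below each time. The log2 ratio there was -2.36 and -1.67 for the same label and -2.19 and -1.84 for the other. It had 6.81 and 10.2 FPKM in RIP and 14.2 and 8.51 FPKM in Input, with quotients of 0.481 (0.416 to 0.555) and 1.20 (1.02 to 1.42) against the same label and 0.800 (0.675 to 0.951) and 0.720 (0.628 to 0.826) against the other. But the row of its processed copy H3F3AP4, a pseudogene, had 149 and 223 FPKM in RIP and 33.6 and 36.2 FPKM in Input, more than H3F3A in all 4 libraries. In the acRIP-table Inputs of SW480 and DLD-1, H3F3A had 26.8 and 22.8 FPKM and H3F3AP4 26.3 and 8.10 FPKM. The balance of these rows thus differed between the tables, and the ratios of H3F3A over the acRIP-table Inputs mix both. Why it differed was not tested. A processed copy arises from an mRNA and can resemble it closely. How reads that align to both rows were counted is not given in the sources used here, and the sequences of both were not compared. Of 5 processed copies of H3F3A in the table, 2 were above 0 in each of the 4 libraries. With their reads added to those of H3F3A, RIP over Input was 1.75 (1.60 to 1.92) and 3.53 (3.18 to 3.91) against the same label, and 2.35 (2.12 to 2.61) and 2.63 (2.41 to 2.87) against the other. The sum was chosen after the values were seen. Its direction thus differs between its own row and the sum, and its own row is uncertain. For H2AFZ the copies added at most 15 reads to any library, and its quotients became 2.21, 11.4, 4.85 and 5.21.

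**Figure D4:**
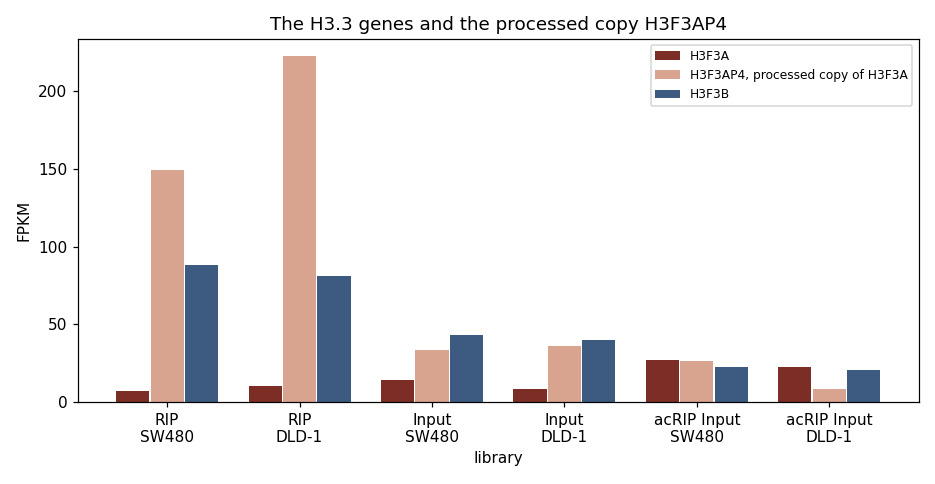
FPKM of H3F3A, of its processed copy H3F3AP4 and of H3F3B in each library (bars from 0), in the RIP table and in the Input columns of the acRIP table. H3F3AP4 reaches 149 and 223 FPKM in RIP, where H3F3A has 6.81 and 10.2 FPKM, and H3F3B lies at 88.5 and 80.9 FPKM.

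The linker histone gene H1FX had 60.7 and 60.1 FPKM in RIP and 20.2 and 37.4 FPKM in Input, so that both RIP libraries lay above both Inputs. Its quotients were 3.01 (2.72 to 3.33) and 1.61 (1.48 to 1.75) against the same label and 1.62 (1.50 to 1.76) and 2.98 (2.69 to 3.31) against the other. Over the acRIP-table Inputs, which were higher for H1FX at 36.7 and 67.1 FPKM, the log2 ratio was 0.17 and -0.75 for the same label and -0.74 and 0.16 for the other, and the excess was not seen.

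To test RIP against Input, both lines were taken as replicates in limma across all 12324 genes, with Benjamini-Hochberg adjustment. It called 193 genes (1.57%), 33 higher and 160 lower in RIP, and 0 of the 7 members. At an unadjusted p under 0.05 there were 3 members. H3F3B was 1.003 (SE 0.25) higher on the log2 scale, with an adjusted p of 0.116 in limma. H2AFZ was 2.29 (SE 0.60) higher at an adjusted p of 0.123, and H1FX 1.11 (SE 0.38) higher at 0.187. All 3 were higher in 2 of 2 RIP libraries. With the acRIP-table Inputs in their place limma again called 0 members, and the differences were 1.37 (adjusted p 0.0971) for H3F3B, 0.39 (0.753) for H2AFZ and -0.29 (0.754) for H1FX. The lowest adjusted p was then that of H3F3A, at -2.02 (0.0852). That value mixes both tables, between which the balance of H3F3A and H3F3AP4 differed. With a line term and the libraries paired as labelled, limma again called 0 members. With a line term and the Inputs exchanged between labels, it called 2298 genes (18.6%) higher and 2312 lower, and 4 of 7 members higher. These were H2AFZ (adjusted p 0.000711), H3F3B (0.00905), H1FX (0.0160) and H2AFX (0.0183, at 0.83 with SE 0.20). This pairing goes against the labels, and the call of these 4 genes rests on it. It was taken up because of the correlations of these same libraries, so it was chosen from the values tested. The SE of H2AFZ was 0.187 with it, against 0.60 without a line term. The adjusted p of these 4 genes therefore do not stand as support.

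Genes that deposit or read these variants were taken from lists drawn up by function. Counts past 2-fold stand beside the shares of all genes given above, non-coding genes included. Over the same label these shares were 15.6% and 15.1% above and 16.0% and 19.2% below. Over the other label they were 9.24% and 9.36% above and 11.7% and 11.8% below. The 11 H3.3 deposition genes had median log2 ratios of -0.07 and -0.12 over the same label, with 1 and 2 genes 2-fold above and 1 and 2 below. Over the other label the medians were 0.28 and -0.07 with 0 genes past 2-fold. The 14 H2A.Z exchange genes had medians of 0.09 and -0.27, with 3 above in each line and 1 and 0 below, and of -0.16 and -0.09 over the other label, with 3 above and 1 below in each. Their highest was YEATS4, a subunit of complexes that place H2A.Z, at 1.74 and 2.81 (2.48 and 2.07 over the other label). Their lowest was EP400, the ATPase of 1 such complex, at -1.31 and -0.91 (-1.01 and -1.21).

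The 7 H2AX signalling genes had medians of -0.10 and -0.42 over the same label and -0.17 and -0.55 over the other, with 0 genes past 2-fold. MDC1, which binds phosphorylated H2AX, was their lowest at -0.84 and -0.74 (-0.64 and -0.93 over the other label). Their highest was ATR over the same label, at 0.065 and 0.83, and ATM over the other, at 0.26 and 0.02. The 8 genes that process stem-loop histone mRNAs had medians of 0.03 and 0.43, with 0 and 1 above and 0 and 1 below, and of 0.43 and 0.17 over the other label, with 0 above and 1 below in each. LSM10, part of the U7 particle, was their lowest at -0.78 and -1.70 (-1.46 and -1.03). Their highest was CPSF3 over the same label, at 0.46 and 0.36, and ERI1 over the other, at 0.79 and 0.85. Of 10 further variant genes 2 were tested. CENPA, the centromeric H3, lay at 0.11 and 0.86 (0.37 and 0.60), and H2AFY2, macroH2A2, at 1.09 and -0.73 (0.24 and 0.11).

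The replication-dependent histone genes, with 52 of 71 tested, had median log2 ratios of -0.65 and 2.25 over the same label and 0.43 and 0.99 over the other. The 7 replacement genes tested had 0.68 and 0.67, and 0.67 and 0.89. The difference between both sets was not tested. Stem-loop mRNAs end without a poly(A) tail, and how the library kit selected RNA is not given in the sources used here.

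The 5 protein-coding genes whose profile over the 4 RIP-table libraries was nearest to the mean profile of the 7 members tested were ATXN10, RSPRY1, HIF1A, METTL14 and LNPK. Their Euclidean distances on centred log2(FPKM + 1) were between 0.0215 and 0.0833. The members themselves lay between 0.448 (H3F3B) and 1.77 (H2AFZ) from that mean, so no member was as close to it as these genes. The mean profile averages unlike members.

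Finally, where the mRNAs carried ac4C peaks was examined, with the authors' fold of acRIP over Input within a peak. In each of the 3 peak lists, 1 per line and 1 of both lines pooled, 6 of the 8 genes hosted a peak, where 51.1%, 56.8% and 63.6% of the 10350 protein-coding genes tested did. H3F3B and H2AFJ had none, and H2AFJ was not among the genes tested. For each of the 6 hosts, 109 to 155 of the 200 nearest genes in Input hosted a peak in SW480. In DLD-1 these were 116 to 159, and in the pooled list 133 to 164. The 6 genes thus hosted peaks as most genes of like Input did. The lack of a peak on H3F3B was against its level, since 159, 165 and 159 of its 200 nearest genes in Input hosted a peak. The 8 genes held 9 peaks in SW480, 12 in DLD-1 and 13 in both lines pooled, and 6, 9 and 9 of them exceeded the median fold of their list (19.5, 14.6 and 13.6). At least 1 base was shared with a peak of the other line in 9 of the 9 and 8 of the 12, where 55.3% and 36.5% of all peaks of these lists did so. There was 1 acRIP library per line, and peak height was not tested between lines.

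Peaks of 3 genes, H2AFZ, H2AFX and H1FX, ended within 50 bases of the annotated 3′ end of the gene in each list. Of all protein-coding host genes matched to RefSeq, 16.9%, 11.1% and 16.4% had such a peak, against 3 of the 6 member hosts in each list. The share among genes of like mRNA length was not examined.

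H1FX had 1 peak in the 3′ UTR, at chr3:129314801-129315657 in SW480, with a fold of 889 in SW480, 96.4 in DLD-1 and 234 in both lines pooled. It held 11, 10 and 11 sites of the 12-base pattern with 4 evenly spaced Cs that the lists count, and its fold exceeded 99.2%, 94.0% and 98.0% of the peaks of its list. H2AFX had peaks on its exon at chr11:119093914-119094481 in all lists, with folds of 186, 635 and 246 and 7 sites. An overlapping entry in 2 blocks had folds of 186, 337 and 228 and 3 sites. A further region towards the 5′ end, at chr11:119094780-119095079, was listed in DLD-1 (fold 52.3) and, in part, in the pooled list but not in SW480. H2AFX is listed with overlapping peaks of the same region, so its 2 entries in SW480 stand for 1 region and its 4 in DLD-1 for 2.

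H2AFZ carried the same peak in all lists, chr4:99948116-99948684, with folds of 177, 304 and 156. It ends 28 bases from the 3′ end of the gene and held 0 sites of the pattern, while 56.2%, 55.1% and 54.1% of all peaks of the lists held at least 1. A second H2AFZ peak of fold 11.1 was listed in DLD-1 at chr4:99949312-99949551, and one of fold 3.71 in the pooled list. Its paralog H2AFV had a peak over coding exons, starting at chr7:44835547, of fold 136 in SW480 over 3 exon blocks and 32.3 in DLD-1 over 2. In H2AFY, a peak 149 bases from the 3′ end had folds of 40.7 and 34.2, and 1 of its SW480 peaks, with a log10 FDR of -0.97, did not pass an FDR of 0.05. H3F3A had weak peaks, with folds of 5.34, 4.01 and 4.63 and 0 sites, above only 7.86%, 5.25% and 11.1% of their lists. The processed copies held 1 peak, which was in the pooled list, and 0 in the lists of SW480 and of DLD-1.

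**Figure D5:**
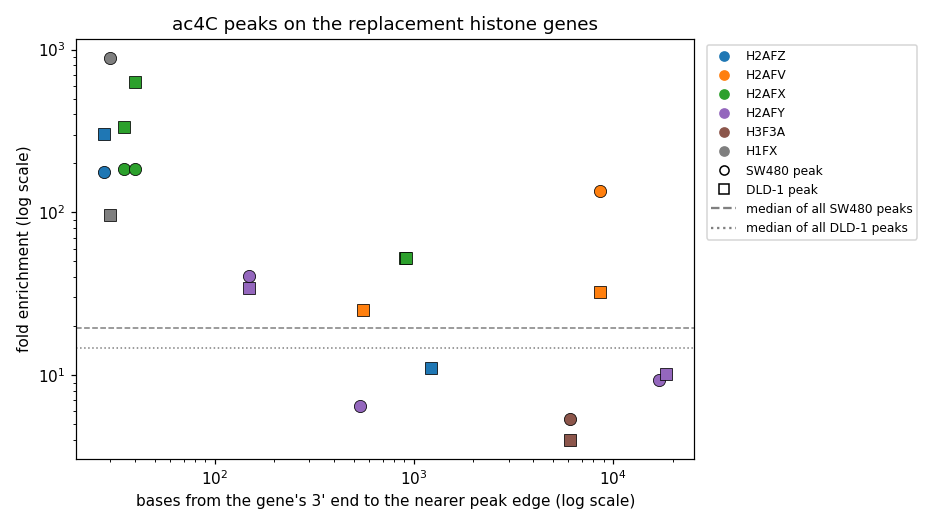
Fold of acRIP over Input (log scale) of each ac4C peak on these genes against the distance from the gene's 3′ end to the nearer peak edge (bases, log scale), in SW480 (circles) and DLD-1 (squares), with the median fold of all peaks of each list as a line. Peaks with folds of 177 or more lie within 50 bases of the 3′ end, and H3F3A peaks lie below both medians.

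Both readouts did not rank the genes alike. H2AFZ and H1FX had RIP above both Inputs of the RIP table and peaks of high fold, whereas H3F3B had RIP above every Input and no peak. H2AFV had a peak of fold 136 in SW480 and a log2 RIP ratio between -0.22 and 0.68. With 8 genes, no correlation was computed.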

How the data were processed

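RIP-seq, acRIP-seq and Input libraries of SW480 and DLD-1 cells were grouped by the submitters' titles, with 1 library in each of 6 groups. The submitters' processing notes name cutadapt 2.5, HISAT2 2.1.0 and GRCh38. The counting tool, strand setting and peak caller are not given in the sources used here. The authors deposited FPKM values for RIP and Input, and a second table with Inputs whose unit is not named and was read as FPKM. They also deposited their own RIP to Input ratios and a mean of these, which were not used. The study's text speaks of IgG where table and labels name Input. In the deposited peak lists each peak has a p-value, log10 values of p and FDR (in part spreadsheet errors, where p is 0, taken as passed) and a fold, the enrichment ratio over Input.

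Reads were solved as the smallest whole numbers giving the FPKM ratios between columns, for 23515 of 23515 genes above 0 in at least 2 columns, so counting intervals (95%, exact binomial) are upper limits and cover counting error only. Ratios used a pseudocount of 1 FPKM, which understates changes of low genes, and genes with an Input of at least 1 FPKM in both lines. limma 3.58.1 in R 4.3.3 was checked on simulated data. Where the acRIP-table Inputs were used, they were scaled to the median of the RIP-table Inputs. Nearest genes were the 200 protein-coding genes closest in Input. The genes named are the 8 members, the highest and lowest of each list except the replication-dependent histone genes, and the 5 most alike. The highest had the largest smaller-of-both-labels ratio. The lowest had the smallest larger-of-both-labels ratio. H3F3AP4 was named after its values were seen. A further gene of the class is not reported here. Members and lists were chosen with earlier results of these data known. Alternatives covered the pseudocount, centring, the Input taken, filters, the limma model, left-out libraries, the number of nearest genes, peak thresholds and overlap.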

Additional observations from a re-analysis of the deposited data

Results flagged for a closer look

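Log2 RIP over Input against the same label had opposite signs in the 2 lines for 5 of the 8 genes, and the difference between lines was not tested. As SW480 minus DLD-1, these differences were 0.90 for H2AFV, -1.92 for H2AFX, 6.10 for H2AFJ, -0.32 for H2AFY and -1.20 for H3F3A. For H2AFY the SW480 value was -0.004, at the level of Input. Over the other-label Input, H2AFV, H2AFX, H2AFY and H3F3A had 1 sign with both RIP libraries. The share of all genes with opposite signs against the same label was not counted, so the 5 genes are not set apart from others. Between labels, RIP and Input moved in opposite directions for 74.0% of the 12324 genes with an Input of at least 1 FPKM in both lines.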

How the results depend on the processing

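Over the other-label Input, 11 of the 16 single-gene ratios (8 genes, 2 RIP libraries) kept their sign. This count was 13 over the acRIP-table Input of the same label, 9 over that of the other label, and 16 with a pseudocount of 0.1 or after centring. With the other-label Input the ratio of H2AFJ in SW480 turned to -0.63. H2AFX and H2AFY in SW480 turned to 0.67 and 0.007, and H2AFV and H3F3A in DLD-1 to 0.40 and -0.44. Over the other-label Input of the acRIP table H2AFJ in SW480 was -0.58, and H1FX in SW480 turned to -0.74. There H2AFV, H2AFX and H2AFY in SW480 turned to -0.14, 0.46 and 0.15, and H2AFV and H3F3A in DLD-1 to 0.07 and -1.84. Over the same-label Input of the acRIP table H2AFZ in SW480 turned to -0.52. H1FX and H3F3A in DLD-1 turned to -0.75 and -1.67. The cause was not tested.

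The median of the members was 0.50 in SW480 after centring, 0.89 in DLD-1 over the other label, -0.093 and 0.46 (SW480 and DLD-1) over the acRIP-table Input of the same label, and 0.079 and 0.22 over that of the other. The count of members 2-fold above Input in SW480 fell from 3 to 1 after centring and over either acRIP-table Input, and in DLD-1 from 2 to 1 over the other-label one. The count 2-fold below in SW480 was 1 with a pseudocount of 0.1, after centring and over either acRIP-table Input, and in DLD-1 it was 1 over either acRIP-table Input or with no filter. The median of the replication-dependent histone genes was -0.83 in SW480 after centring, 0.43 and 0.99 over the other label, 2.14 in DLD-1 over the acRIP-table Input of the same label, and 0.39 and 0.85 over that of the other.

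limma called 0 genes higher and 9 lower with a line term paired as labelled, 2298 and 2312 with Inputs exchanged (4 members), 102 and 621 with a pseudocount of 0.1, 36 and 121 with the acRIP-table Inputs, and 0 and 0 with no filter. At an unadjusted p under 0.05, no filter gave 2067 and 1825. Leaving out 1 library gave 0 to 1 higher and 0 to 55 lower, where the lone library is taken to vary like the others. In each of these fits except that with Inputs exchanged 0 members were called, with 1 to 3 at an unadjusted p under 0.05. Taking 100 or 500 nearest genes moved a share of lower genes by at most 5.5 percentage points. In each peak list 6 of 8 members hosted a peak under both stricter thresholds, and with an overlap of 50% the shared member peaks were 6 in each line. No paired analysis by replicate was possible because the labels give no shared replicate numbers. The depth of the acRIP libraries is unknown.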
